A study of Mus musculus with 8 samples.

Results

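Expression of the respiratory chain complexes II to V, with subunits from both genomes, was compared between mouse myeloid progenitors carrying a Trim27 virus and progenitors carrying a GFP control virus. Members were taken from the deposited gene table by symbol (Sdha to Sdhd, Uqcr genes, Cyc1, Cox4 to Cox8 genes, Atp5 genes, and the mitochondrially encoded Nd, Co, Atp and Cytb genes), with a sum of at least 100 counts over the 8 libraries. The rule gave 56 members, 45 nuclear and 11 mitochondrially encoded, of 33435 genes in the table. Of the 64 matching symbols, 8 fell short of the sum. The mitochondrially encoded Nd genes belong to complex I and were kept for contrast.

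There were 4 Trim27 libraries and 4 GFP libraries. In both groups, stem and progenitor cells (HSPCs) from fetal livers of C57BL/6J embryos at E14.5 were infected, and myeloid progenitors were then sorted from the infected cells. The Trim27 group received a virus carrying Trim27, which encodes a tripartite motif ubiquitin ligase, and the GFP group received the control virus, which the series design calls an empty vector. The viral promoter, the time after infection and any pooling of embryos stay unnamed in the labels. Whether each library stands for its own culture or embryo is not labelled either, so a p-value here weighs a difference against the variation from library to library, which can be purely technical.

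Complex II passes electrons from succinate to ubiquinone, complex III from ubiquinol to cytochrome c, and complex IV from cytochrome c to oxygen. Complexes III and IV pump protons, and complex V, the ATP synthase, uses the returning protons to make ATP. Complex II is built from nuclear genes alone, whereas III, IV and V join nuclear subunits to a few core subunits made from mitochondrial DNA, so that both genomes have to be expressed together.

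The libraries held 10551137 to 16366571 counts in the Trim27 group and 9257889 to 10747794 in the GFP group. Genes with a count numbered 12962 to 13283 in Trim27 libraries and 11131 to 11850.0 in GFP libraries. Genes of the cytosolic ribosomal proteins took 18.5% to 19.3% of counts in Trim27 libraries and 26.6% to 26.7% in GFP libraries. The part of these differences in the results was not tested. Across genes, correlations of log2 values were 0.993 to 0.996 for library pairs within groups and 0.814 to 0.828 for pairs between groups. Trim27 itself was at 293 ± 18.4 in Trim27 libraries and 181 ± 8.52 in GFP libraries (CPM, read counts relative to the TMM-scaled library size, SD, n = 4 each). All 10 myeloid progenitor markers had counts, and their sum was 2251 to 2488 CPM in Trim27 libraries and 2036 to 2152 CPM in GFP libraries. Of these 10, 2 rose and 7 fell by the threshold given below, where 47.5% of all genes tested rose and 38% fell. Csf2rb, which rose, was set aside after seeing the data. Without it the sum was lower in Trim27 libraries (1118 to 1285 CPM) than in GFP libraries (1557 to 1671 CPM). Of 20 erythroid markers, 10 rose and 10 fell (median 0.031), near the shares of all genes (47.5% and 38%). Their sum was 2550 to 2744 CPM in Trim27 and 2869 to 2907 CPM in GFP libraries. Klf1, an erythroid transcription factor, was at 502 ± 40.5 CPM in Trim27 libraries and 911 ± 21.0 CPM in GFP libraries, and Gata1, another, at 314 ± 14.9 CPM in Trim27 libraries and 167 ± 7.56 CPM in GFP libraries. The sum of 10 early B markers was 41.1 to 56.2 CPM in Trim27 and 66.6 to 160.5 CPM in GFP libraries. The 12 hepatocyte markers summed to 15.1 to 17.6 CPM in Trim27 and 1.196 to 1.70 CPM in GFP libraries, with 8 of them, among them Alb and Ttr, at 0 throughout. Afp (mean 9.25 CPM in Trim27 and 1.42 CPM in GFP libraries) and Apoa1 (6.05 and 0 CPM) rose. The 10 macrophage markers summed to 22.9 to 33.9 CPM in Trim27 and 0 to 1.196 CPM in GFP libraries, with 7, among them C1qa and Mrc1, at 0. Emr1 (mean 10.8 CPM in Trim27 and 0 CPM in GFP libraries) and Slc40a1 (18.1 and 0.0598 CPM) rose. The part of these markers in the results below was not tested. In bulk RNA, fewer cells of a type and less RNA per cell cannot be told apart.

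Most nuclear subunits of complexes III, IV and V were lower in the Trim27 libraries, while the mitochondrially encoded genes were split. Of 45 nuclear members, 35 fell, 6 rose and 4 did not pass the threshold (edgeR's quasi-likelihood test, Benjamini-Hochberg adjusted p under 0.05 over 11040 genes). Over all genes tested, 38% fell and 47.5% rose. Among genes of at least 6 log2 CPM, a level that 37 of the 45 nuclear members reach, 56.3% fell and 30.7% rose. The median log2 fold change of the nuclear members was -0.70, against 0.14 over all genes tested and -0.23 over the abundant ones. Of the 11 mitochondrially encoded members, 4 fell, 2 rose and 5 did not pass, with a median of -0.24. These counts shifted when transcript length was taken into account. With each library's trend on length removed, 30 nuclear members fell and 5 rose (44% and 39.8% of all genes), with a nuclear median of -0.32. With the trend of abundant genes removed, 19 fell and 13 rose (29.5% and 53.8%), with a median of -0.044. The nuclear median was -0.40 with unscaled library sizes and -0.44 among members with under 10% of their 50-base windows in another annotated gene.

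**Figure D1:**
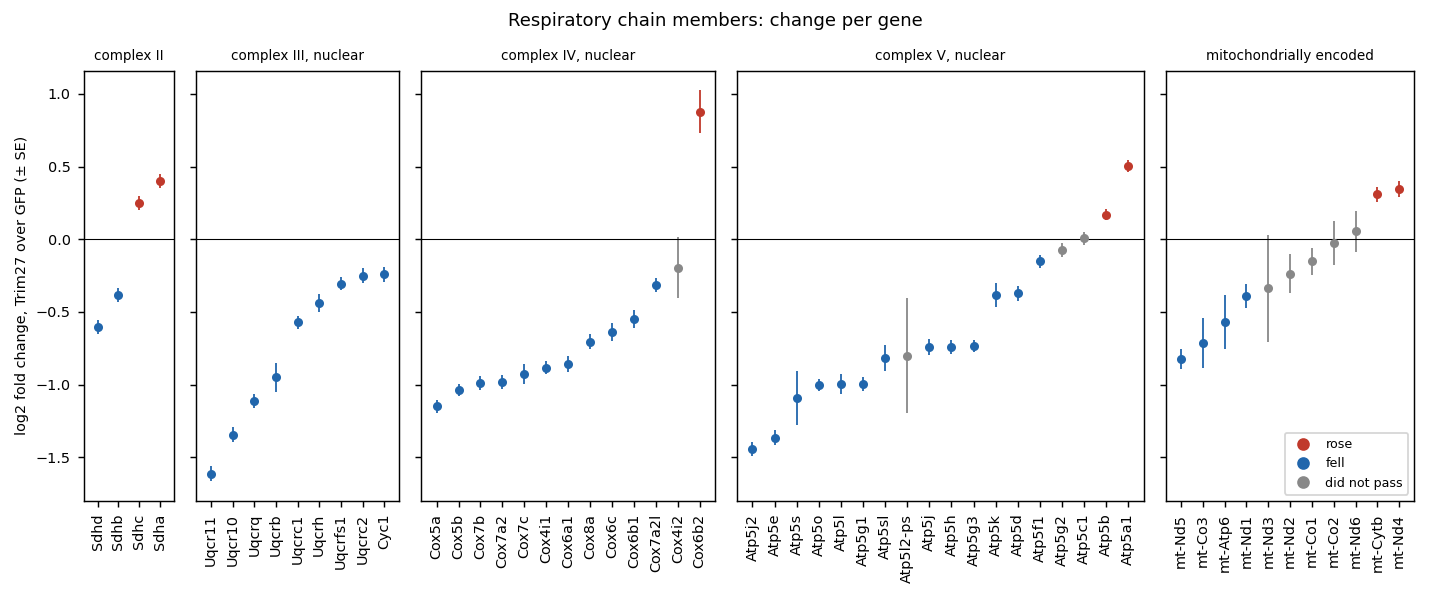
Log2 fold change of each member, Trim27 over GFP, with its standard error from the fit, in panels for the nuclear members of complexes II to V and for the mitochondrially encoded members. Red points rose, blue points fell and grey points did not pass the threshold. All 9 nuclear members of complex III lie below 0, Sdha, Sdhc, Cox6b2, Atp5a1 and Atp5b lie above it, and Cox7a1, which had no count in the GFP libraries, is left out.

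Summed over members, the nuclear genes came to 22433, 23605, 23478 and 23150.0 in the Trim27 libraries, against 34073, 33363, 33210.0 and 33373 in the GFP libraries (summed CPM). The groups did not overlap. The mitochondrially encoded members summed to 3545, 2716, 2799 and 2967 in the Trim27 libraries, against 3078, 3489.9, 3044 and 3235 in the GFP libraries (summed CPM), and here the groups overlapped. Trim27 replicate 1 was the highest Trim27 library of the mitochondrial sum and the lowest of the nuclear sum. As the log2 ratio of the nuclear to the mitochondrial sum, which no scaling of the libraries changes, the libraries gave 2.66, 3.12, 3.07 and 2.96 in the Trim27 libraries, against 3.47, 3.26, 3.45 and 3.37 in the GFP libraries. Each Trim27 library lay below every GFP library. As a share of all counts, without TMM scaling, the nuclear members took 2.57 ± 0.0333 in Trim27 libraries and 3.01 ± 0.0161 in GFP libraries and the mitochondrial members 0.334 ± 0.0453 in Trim27 libraries and 0.289 ± 0.0188 in GFP libraries (percent of counts, SD, n = 4 each). The mitochondrial share overlapped between groups.

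Values in brackets after the levels of a gene are its log2 fold change, Trim27 over GFP, with the SE and adjusted p of the edgeR fit where given. Complex II split by subunit. The catalytic flavoprotein Sdha and the membrane anchor Sdhc rose, while the iron-sulphur subunit Sdhb and the other anchor, Sdhd, fell. Sdha, which oxidises succinate, had 208, 209.7, 213 and 220.3 CPM in the Trim27 libraries, against 159.9, 165, 152 and 167 CPM in the GFP libraries. Sdhc had 219, 218, 214 and 212 CPM in the Trim27 libraries, against 177, 178, 187 and 185 CPM in the GFP libraries. In both genes every Trim27 library was above every GFP library, with log2 fold changes of 0.40 for Sdha (SE 0.051, adjusted p = 2.53e-08) and 0.25 for Sdhc (SE 0.049, adjusted p = 3.27e-05). Sdhb, which carries electrons through its iron-sulphur clusters, had 419, 461, 471 and 467 CPM in the Trim27 libraries, against 593, 609, 591 and 580.0 CPM in the GFP libraries (-0.38, SE 0.05, adjusted p = 1.27e-08). Sdhd had 226, 214, 204 and 213 CPM in the Trim27 libraries, against 331, 315, 337 and 319 CPM in the GFP libraries (-0.60, SE 0.05, adjusted p = 2.26e-12). For Sdhb and Sdhd each Trim27 library was lower than every GFP library. The rises of Sdha and Sdhc were lost with the length trend removed, where they were at -0.11 (adjusted p = 0.0552) and -0.025 (adjusted p = 0.664). Sdhd fell in all 22 settings of scaling, filter, test and left-out libraries, and Sdhb in 20 of them. With library sizes unscaled Sdhb did not pass (-0.080, adjusted p = 0.0851). The sum over the complex was lower in Trim27 libraries on the TMM scale, 1097 ± 18.2 in Trim27 libraries and 1262 ± 6.89 in GFP libraries (CPM), but higher as an unscaled share, 0.122 ± 0.00179 in Trim27 libraries and 0.113 ± 0.000893 in GFP libraries (percent of counts, SD, n = 4 each).

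The 250 bases before the start of Sdha are shown because they hold 3 matches to a motif of NRF1, a transcription factor known for binding promoters of respiratory chain genes. In RefSeq's GRCm38.p6 they lie on the minus strand at chr13:74350241-74350490, and the capitals mark the matches.
Sdha: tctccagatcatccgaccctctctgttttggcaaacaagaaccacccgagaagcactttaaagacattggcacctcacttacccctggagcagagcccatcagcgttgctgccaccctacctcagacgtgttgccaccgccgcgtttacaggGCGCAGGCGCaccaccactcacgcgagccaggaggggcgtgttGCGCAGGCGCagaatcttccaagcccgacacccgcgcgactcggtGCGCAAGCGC

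The motif, GCGCA and GCGC with 1 free base between them, was searched on both strands of RefSeq promoters that run from 250 bases before to 50 after each start. It was found in 10 of the 35 nuclear members matched to a promoter (28.6%) and in 5.19% of 27025 genes. Of the members with it, Sdha rose, 7 fell (Sdhd, Atp5g3, Atp5o, Uqcrc1, Atp5h, Cox6a1 and Atp5k) and Atp5c1 and Atp5g2 did not pass. CCGGAAG, a core that ETS factors such as GABP bind, was found in 12 of the 35 (34.3%) and in 9.93% of all genes. All 12 of these members fell, where 29 of the 35 fell in all and only 4 rose. Nuclear members not matched to a promoter, among them Sdhc and Atp5a1, which rose, were not searched. AAGATGGC, bound by YY1, was found in 4 members (11.4%, against 3.19%), and TCAAGGTCA, bound by ERR receptors, in Sdhd and Atp5g3 (5.71%, against 0.466%). No overlap between different motifs occurred in the promoters printed here.

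In complex III all 9 nuclear members fell (38% of all genes), and for each of them every Trim27 library was below every GFP library. With unscaled library sizes 6 fell and 3 did not pass (28.1% of all genes fell). With the trend of abundant genes on length taken out, 5 fell, 1 rose and 3 did not pass (29.5% fell and 53.8% rose over all genes), with a median of -0.16 in place of -0.57. Among all genes tested, 35.4% showed a Trim27 group wholly below the GFP group and 45.3% a group wholly above. The changes were smallest in Cyc1, Uqcrc2 and Uqcrfs1 and largest in the small subunits Uqcr11, Uqcr10 and Uqcrq. Cyc1, the cytochrome c1 that hands electrons to cytochrome c, had 529.6, 607, 607 and 588 CPM in the Trim27 libraries, against 733, 658, 694 and 673 CPM in the GFP libraries (-0.24, SE 0.05, adjusted p = 5.72e-05). Uqcrfs1, the Rieske iron-sulphur protein, had 690.1, 673, 662 and 678 CPM in the Trim27 libraries, against 831, 865, 794 and 852 CPM in the GFP libraries (-0.31, SE 0.04, adjusted p = 2.31e-07). Uqcrc2, a core subunit, had 214, 204, 193 and 203 CPM in the Trim27 libraries, against 237, 256, 228 and 248 CPM in the GFP libraries (-0.25, SE 0.05, adjusted p = 5.46e-05). Its exons overlap Pdzd9 on the opposite strand, so some of its reads may belong there. In all 3 the Trim27 libraries lay below the GFP libraries. Scaled by library size alone, none of the 3 passed. Cyc1 was at 0.062 (adjusted p = 0.206), Uqcrc2 at 0.052 (adjusted p = 0.342) and Uqcrfs1 at -0.0018 (adjusted p = 0.968).

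The small subunits surround the core. Uqcr11 had 365, 422, 429 and 389.9 CPM in the Trim27 libraries, against 1300.2, 1159, 1285 and 1172 CPM in the GFP libraries (-1.61, SE 0.05, adjusted p = 4.4e-21). This was the lowest log2 fold change among the 56 members. Uqcr10 had 388, 425, 427 and 444 CPM in the Trim27 libraries, against 1106, 1006, 1097 and 1064 CPM in the GFP libraries (-1.34, SE 0.05, adjusted p = 2.46e-20). Uqcrq had 339.7, 386, 399 and 361 CPM in the Trim27 libraries, against 829.6, 766, 829 and 793 CPM in the GFP libraries (-1.11, SE 0.05, adjusted p = 4.21e-18). All 3 fell in each of the 22 settings, as did the core subunit Uqcrc1, at 2552 ± 173 CPM in Trim27 libraries and 3791 ± 65.8 CPM in GFP libraries (-0.57). The remaining nuclear subunits, Uqcrb (-0.95) and the hinge protein Uqcrh (-0.44), fell too. Uqcrh turned to 0.22 (adjusted p = 0.00233) with the length trend removed. Of the 50-base windows of the Uqcrb transcript, 43.4% occur unchanged in transcripts of 5 other annotated genes, so its counts are uncertain. Uqcrb fell in 21 of the 22 settings and did not pass in 1, and its values reached -0.093.

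Uqcr11 gave the lowest value and its promoter held a match to the ETS core, which is shown in capitals. The 250 bases before its start lie on the minus strand of RefSeq's GRCm38.p6 at chr10:80406822-80407071.
Uqcr11: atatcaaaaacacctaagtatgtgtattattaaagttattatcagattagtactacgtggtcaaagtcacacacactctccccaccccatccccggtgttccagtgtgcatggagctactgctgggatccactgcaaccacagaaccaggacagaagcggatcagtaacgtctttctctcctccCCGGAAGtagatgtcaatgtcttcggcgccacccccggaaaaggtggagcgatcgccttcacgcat

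Complex IV fell in 11 of its 14 nuclear members, with Cox6b2 and Cox7a1 higher and Cox4i2 not passing (38% of all genes fell and 47.5% rose). With the trend of abundant genes on length taken out, 5 fell, 4 rose and 5 did not pass (29.5% and 53.8% of all genes), and the median was 0.011 in place of -0.78. Its lowest values were in the ubiquitous subunits Cox5a, Cox5b and Cox7b. Cox5a had 224, 212, 216 and 218 CPM in the Trim27 libraries, against 492, 478, 489.5 and 471 CPM in the GFP libraries (-1.15, SE 0.05, adjusted p = 2.44e-19). Its exons overlap the noncoding Gm26631 on the opposite strand, and 32.0% of its 50-base windows recur in 3 other annotated genes. Cox5b, which binds zinc and shares 30.6% of its windows with Gm11273, had 521, 548, 535 and 532 CPM in the Trim27 libraries, against 1122, 1076, 1083 and 1102 CPM in the GFP libraries (-1.04, SE 0.04, adjusted p = 5.03e-19). Cox7b had 276, 242, 259 and 263 CPM in the Trim27 libraries, against 509.9, 526, 517 and 514 CPM in the GFP libraries (-0.99, SE 0.05, adjusted p = 1.79e-17). In these 3 genes each Trim27 library lay below every GFP library, and the fall held in all 22 settings. Falls were also found for Cox7c (-0.93), Cox6c (-0.64), Cox8a (-0.70) and Cox6b1 (-0.55). Other annotated genes hold 53.0% of the windows of Cox7c, so its counts are uncertain. Cox7c fell in 21 of the 22 settings and did not pass in 1, and its values reached -0.075. Cox6c, Cox8a and Cox6b1 turned to 0.14, 0.14 and 0.37 after removal of the length trend of abundant genes.

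Several complex IV subunits exist as a common and a tissue-restricted isoform, and the common forms prevailed in both groups. Cox4i1, the common form of subunit 4, had 1391, 1584, 1582 and 1494 CPM in the Trim27 libraries, against 2917, 2764, 2728 and 2762 CPM in the GFP libraries (-0.88, SE 0.05, adjusted p = 7.29e-17). Cox4i2, known from lung and from low oxygen, had 3.49, 5.78, 6.35 and 6.20 CPM in the Trim27 libraries, against 5.94, 5.32, 6.22 and 7.40 CPM in the GFP libraries, groups that overlap (-0.20, SE 0.21, adjusted p = 0.38). Cox6a1, the common form of subunit 6a, had 732, 860.3, 867 and 772 CPM in the Trim27 libraries, against 1580.0, 1369, 1486 and 1430.4 CPM in the GFP libraries (-0.86, SE 0.05, adjusted p = 1.63e-14). It fell in 21 of the 22 settings and did not pass in 1, and its values reached -0.044. The muscle form Cox6a2 had 1 count in all libraries together. Cox8a, the common form of subunit 8, had 655, 749, 739.5 and 659.6 CPM in the Trim27 libraries, against 1175, 1142, 1112 and 1138 CPM in the GFP libraries (-0.70, SE 0.05, adjusted p = 4.81e-14). Its relatives Cox8b and Cox8c had no count in any library, and neither had Cox7b2.

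Subunit 6b showed opposite changes in its isoforms with TMM, though not once a length trend was removed. Cox6b2, known as the testis form, had 15.6, 17.0, 17.3 and 17.3 CPM in the Trim27 libraries, against 11.1, 10.9, 7.89 and 6.79 CPM in the GFP libraries (0.88, SE 0.15, adjusted p = 3.58e-06). All Trim27 libraries were above all GFP libraries, and GFP replicates 3 and 4 were the lowest. The common form Cox6b1 had 84.6, 96.4, 93.7 and 83.9 CPM in the Trim27 libraries, against 141, 133, 129 and 124 CPM in the GFP libraries (-0.55, SE 0.06, adjusted p = 1.85e-09). Cox6b1 was at 0.097 (adjusted p = 0.148) with the length trend removed and at 0.37 with that of abundant genes removed. Within the pair, Cox6b2 made up 15.6, 15.01, 15.6 and 17.1% in the Trim27 libraries, against 7.30, 7.54, 5.76 and 5.20% in the GFP libraries, a share that library scaling cannot change.

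Subunit 7a has a heart and muscle form, Cox7a1, a common form, Cox7a2, and the related Cox7a2l, which joins complexes into supercomplexes. Cox7a1 had 1.74, 2.59, 1.66 and 2.29 CPM in the Trim27 libraries, against 0, 0, 0 and 0 CPM in the GFP libraries, 129 counts against none, which is at least 24.7-fold higher against a floor of 3 counts over the GFP group. Counting each read of a pair by itself would double that floor to 6 counts and lower the bound to 12.3-fold. Cox7a1 entered the list through its Trim27 counts alone, so a difference was built into its inclusion. Cox7a2 had 146, 146, 143 and 147 CPM in the Trim27 libraries, against 292, 295, 283 and 278 CPM in the GFP libraries (-0.98, SE 0.05, adjusted p = 2.66e-17). Cox7a2l had 261, 246, 241 and 239.9 CPM in the Trim27 libraries, against 304, 314, 304 and 309 CPM in the GFP libraries (-0.32, SE 0.05, adjusted p = 5.02e-07), but it was at 0.067 (adjusted p = 0.169) after removal of the length trend of abundant genes. In both genes each Trim27 library lay below every GFP library. Of the counts of Cox7a1 and Cox7a2 together, Cox7a1 made up 1.18, 1.75, 1.149 and 1.53% in the Trim27 libraries, against 0, 0, 0 and 0% in the GFP libraries.

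The Cox7a1 promoter is shown because this gene was listed in Trim27 libraries only. None of the 4 motifs was found in its 250 bases, on the plus strand of RefSeq's GRCm38.p6 at chr7:30183921-30184170.
Cox7a1: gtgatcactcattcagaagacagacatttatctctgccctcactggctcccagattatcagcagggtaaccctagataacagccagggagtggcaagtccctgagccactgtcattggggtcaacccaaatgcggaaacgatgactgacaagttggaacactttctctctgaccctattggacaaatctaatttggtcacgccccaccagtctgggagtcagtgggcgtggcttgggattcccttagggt

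**Figure D2:**
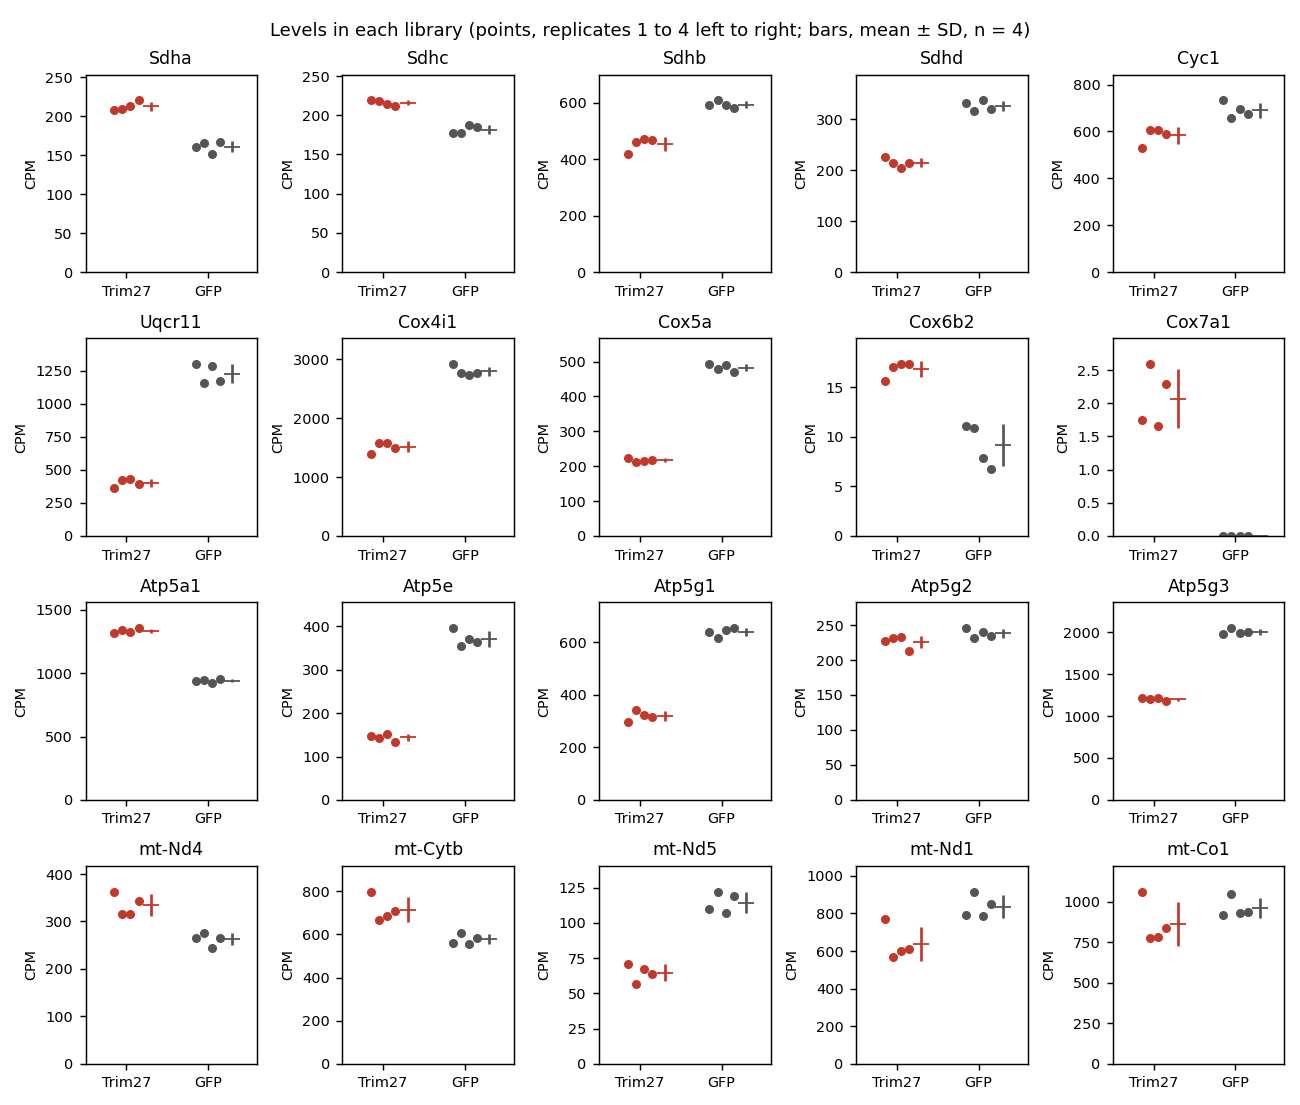
CPM of 20 members in each library, Trim27 in red on the left and GFP in grey on the right of each panel, with the mean and SD (n = 4). Sdha, Sdhc, Cox6b2, Cox7a1, Atp5a1, mt-Nd4 and mt-Cytb are higher in every Trim27 library, and Uqcr11, Cox5a and Atp5e are lower in every one, while Atp5g2 and mt-Co1 overlap.

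In complex V, 13 of 18 nuclear members fell, 2 rose and 3 did not pass (38% of all genes fell and 47.5% rose). With unscaled library sizes 10 fell and 5 rose (28.1% and 56.9%), and with the trend of abundant genes on length taken out 8 fell and 6 rose (29.5% and 53.8%), with a median of -0.045 in place of -0.74. As an unscaled share, the complex took 1.33 ± 0.00535 in Trim27 libraries and 1.33 ± 0.0137 in GFP libraries (percent of counts, SD, n = 4 each), and the groups overlapped. The 3 highest values were those of the large head subunits alpha, beta and gamma. Atp5a1, the alpha subunit, had 1320.5, 1339.9, 1326 and 1356 CPM in the Trim27 libraries, against 939.8, 950.1, 925 and 953 CPM in the GFP libraries (0.50, SE 0.04, adjusted p = 2.54e-12). Its exons overlap Haus1 on the opposite strand. Atp5b, the catalytic beta subunit, had 3038, 3245, 3222 and 3228 CPM in the Trim27 libraries, against 2868, 2884, 2733 and 2835 CPM in the GFP libraries (0.17, SE 0.04, adjusted p = 0.000397). Atp5c1, the gamma subunit that turns inside the head, had 1468, 1396, 1336 and 1412 CPM in the Trim27 libraries, against 1342, 1462, 1366 and 1416 CPM in the GFP libraries and did not pass (0.006, SE 0.04, adjusted p = 0.9). The alpha and beta subunits were higher in every Trim27 library, and the gamma subunit overlapped. The rises of both were lost with the length trend removed, where Atp5a1 was at 0.042 (adjusted p = 0.379) and Atp5b at -0.084 (adjusted p = 0.0674).

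The other subunits of the head and its stalk fell. Atp5e, the epsilon subunit, had 147, 143, 152 and 134 CPM in the Trim27 libraries, against 396, 355, 369.9 and 364 CPM in the GFP libraries (-1.37, SE 0.05, adjusted p = 1.03e-19). Atp5d, the delta subunit, was at 1169 ± 104 CPM in Trim27 libraries and 1513 ± 40.5 CPM in GFP libraries (-0.37), and was at 0.11 (adjusted p = 0.0357) after removal of the length trend of abundant genes. Atp5o, which links head and stalk and overlaps exons of Donson, was at 704 ± 18.9 CPM in Trim27 libraries and 1410.3 ± 37.0 CPM in GFP libraries (-1.002). Among the stalk subunits, Atp5h (-0.74), Atp5j (-0.74, overlapping Gabpa on the opposite strand) and Atp5f1 (-0.15, overlapping Wdr77) fell. Atp5h fell in 21 of the 22 settings and did not pass in 1, and its values reached -0.0075. Other annotated genes hold 50.5% of the windows of Atp5h, 38.7% of those of Atp5f1 and 34.0% of those of Atp5o. Atp5f1 turned to 0.15 (adjusted p = 0.00474) with library sizes unscaled, and its groups overlapped.

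The small membrane subunits also fell. Atp5j2, subunit f, had 357, 388, 378 and 355 CPM in the Trim27 libraries, against 1038, 959, 988 and 1035 CPM in the GFP libraries (-1.44, SE 0.05, adjusted p = 2.81e-21), the lowest value of complex V. Atp5l, subunit g, fell to 55.6 ± 4.94 CPM in Trim27 libraries against 111 ± 7.41 CPM in GFP libraries (-0.998), but 84.8% of its windows occur in 14 other annotated genes. It fell in 21 of the 22 settings and did not pass in 1, and its values reached -0.15. Atp5k, subunit e, was at -0.38 (adjusted p = 0.000125) and turned to 0.38 (adjusted p = 0.000131) with the length trend removed. Its transcript is among the shortest of the list, at 321.5 bases.

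A further 3 matching symbols are not subunits of the synthase. Atp5s, known as factor B, had 7.52, 4.88, 4.03 and 6.70 CPM in the Trim27 libraries, against 10.5, 12.1, 14.0 and 12.3 CPM in the GFP libraries (-1.09, SE 0.18, adjusted p = 3.22e-06). Atp5sl, whose protein takes part in complex I assembly, was at 24.1 ± 1.65 CPM in Trim27 libraries and 42.7 ± 3.17 CPM in GFP libraries (-0.82). The pseudogene Atp5l2-ps had 108 counts in all and did not pass. Without them, 33 nuclear members fell and 6 rose, and the nuclear median was -0.62.

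The promoters of 2 head subunits are shown for contrast, Atp5b, which rose, and Atp5e, which fell, 250 bases each from RefSeq's GRCm38.p6. That of Atp5b lies on the plus strand at chr10:128083057-128083306 and held no match. That of Atp5e lies on the minus strand at chr2:174464102-174464351, and the capitals mark a match to the ETS core on the opposite strand.
Atp5b: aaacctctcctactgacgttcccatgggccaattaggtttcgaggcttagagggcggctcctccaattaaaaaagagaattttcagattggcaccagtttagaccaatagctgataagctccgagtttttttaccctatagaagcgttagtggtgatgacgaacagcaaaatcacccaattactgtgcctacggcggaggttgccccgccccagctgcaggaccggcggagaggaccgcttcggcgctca
Atp5e: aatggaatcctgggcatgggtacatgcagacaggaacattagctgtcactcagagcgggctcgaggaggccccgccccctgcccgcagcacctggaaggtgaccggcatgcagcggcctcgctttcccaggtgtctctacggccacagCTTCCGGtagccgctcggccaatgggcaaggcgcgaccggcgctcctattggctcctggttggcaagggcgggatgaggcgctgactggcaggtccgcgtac

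The c subunits that form the rotor ring come from 3 nuclear genes, which encode one and the same mature protein behind different import signals. Atp5g3 had 1212, 1203, 1214 and 1178 CPM in the Trim27 libraries, against 1976, 2049, 1986 and 2006 CPM in the GFP libraries (-0.74, SE 0.04, adjusted p = 3.36e-16). Atp5g1 had 297, 343, 324 and 317 CPM in the Trim27 libraries, against 638, 617, 648 and 654 CPM in the GFP libraries (-0.996, SE 0.05, adjusted p = 1.87e-17). Atp5g2 had 227, 231, 232 and 213 CPM in the Trim27 libraries, against 246, 232, 239.7 and 235 CPM in the GFP libraries, groups that overlap, and did not pass (-0.073, SE 0.05, adjusted p = 0.163). Atp5g1 and Atp5g3 fell in all 22 settings. Atp5g2 turned to 0.23 (adjusted p = 4.94e-05) with library sizes unscaled. It stood at 0.49 (adjusted p = 1.65e-10) once the trend on length was taken out. Of the counts of the family, Atp5g2 made up 13.1, 13.02, 13.1 and 12.5% in the Trim27 libraries, against 8.59, 8.005, 8.34 and 8.11% in the GFP libraries, and the groups did not overlap. Every window of Atp5g2 and 56.2% of those of Atp5g1 occur in other annotated genes, processed pseudogenes first, so that reads may be lost or shared.

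Per length, the nuclear subunits were far from equal. Using the median length of GENCODE M21 transcripts, Cox4i1 was highest at 2004 CPM per kilobase in Trim27 libraries and 3699 in GFP libraries. Atp5g3 followed at 1673 CPM per kilobase in Trim27 libraries and 2789.7 in GFP libraries. The alpha and beta subunits, which alternate in equal number in the head, stood at 519 CPM per kilobase in Trim27 libraries and 366 in GFP libraries for Atp5a1 and 1662 CPM per kilobase in Trim27 libraries and 1477 in GFP libraries for Atp5b. Atp5e was at 342 CPM per kilobase in Trim27 libraries and 882 in GFP libraries. Atp5e lay below both Atp5a1 and Atp5b in Trim27 libraries, and between them in GFP libraries.

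The change was related to transcript length, as in the whole table. Nuclear members of under 500 bases had a median log2 fold change of -0.55 (9 members). From 500 to under 700 bases it was -0.94 (12), from 700 to under 1000 bases -0.74 (7), from 1000 to under 1500 bases -0.35 (6), and from 1500 bases up -0.24 (11). Over all tested genes the same classes had medians of -0.82, -0.65, -0.45, -0.11 and 0.43, and over genes of at least 6 log2 CPM -1.03, -0.81, -0.57, -0.31 and -0.03. By these medians, members of 500 bases or more were lower than abundant genes of their class in each class. From 1000 to under 1500 bases the medians were close (-0.35 against -0.31). Members under 500 bases went the other way (-0.55 against -1.03). The rank correlation of change with length was 0.33 over the 45 nuclear members and 0.36 over 2643 abundant genes, with Pearson values of 0.02 and 0.35. Without Cox7a1 the members gave 0.40 (rank) and 0.43 (Pearson). These are descriptions across genes, which share libraries and are not independent.

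**Figure D3:**
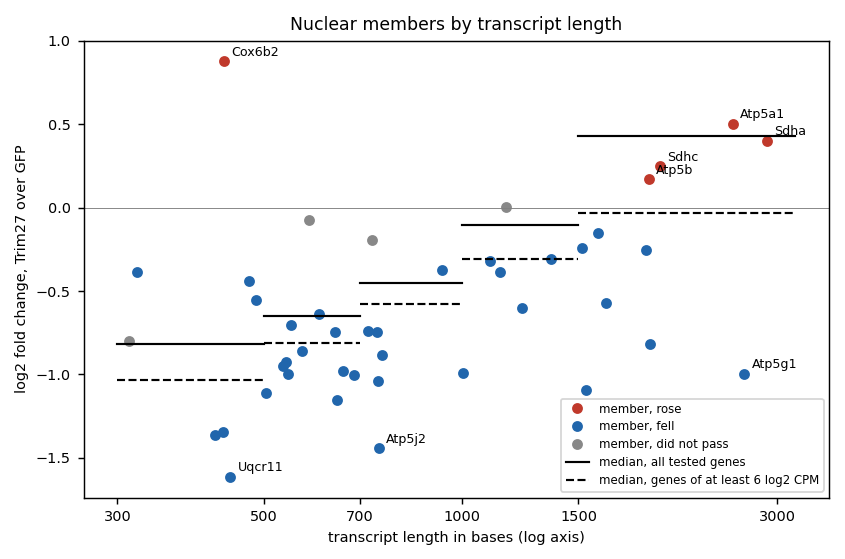
Log2 fold change of the nuclear members, Trim27 over GFP, against transcript length on a log axis, coloured by call, without Cox7a1. Solid lines give the median of all tested genes in each length class and dashed lines that of genes of at least 6 log2 CPM, which run from -1.03 under 500 bases to -0.03 at 1500 or more. Sdha, Sdhc, Atp5a1 and Atp5b, which rose, lie at the long end, and Atp5g1, whose annotated transcripts differ widely in length, lies apart.

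Relative to the median of all genes, the median of the nuclear members was lower in each of the settings run. That median was 0.14 with TMM and 0.44 with unscaled library sizes, and the nuclear median lay below it by the same distance in both (-0.84). Scaling shifts all genes of a library alike, so such a distance hardly can change with it. Its agreement across scalings is therefore no check. Taking out the trend on length made it -0.24, and the trend of abundant genes alone -0.40. In the latter setting the trend came from genes of at least 6 log2 CPM, while the reference median is over all genes. That reference was 0.36 there, and the nuclear median itself was -0.044. For the mitochondrially encoded members the distances were -0.38 with TMM, -0.37 unscaled, 0.023 without the trend on length and -0.18 without that of abundant genes.

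Several other ways of scaling and testing left the nuclear counts as they were. With DESeq2 size factors, upper-quartile factors, mitochondrial genes out of the library sizes, ribosomal protein genes out of them, no filter, the DESeq2 Wald test, limma-voom or the replicate number as a block, 35 nuclear members fell and 6 rose in each case. Over all genes these settings, in that order, called 37.1%, 36.5%, 38%, 38.5%, 28.7%, 36.9%, 38% and 36.5% as lower and 48.3%, 48.9%, 47.5%, 47.1%, 40.1%, 48.1%, 47.5% and 46.5% as higher. Unscaled library sizes gave 27 falls and 9 rises (28.1% and 56.9% of all genes). A required fold above 1.5 gave 22 falls and 2 rises (22.2% and 35.3%). Leaving out both libraries numbered 1 gave 35 falls and 6 rises (37.4% and 47.8%).

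**Figure D4:**
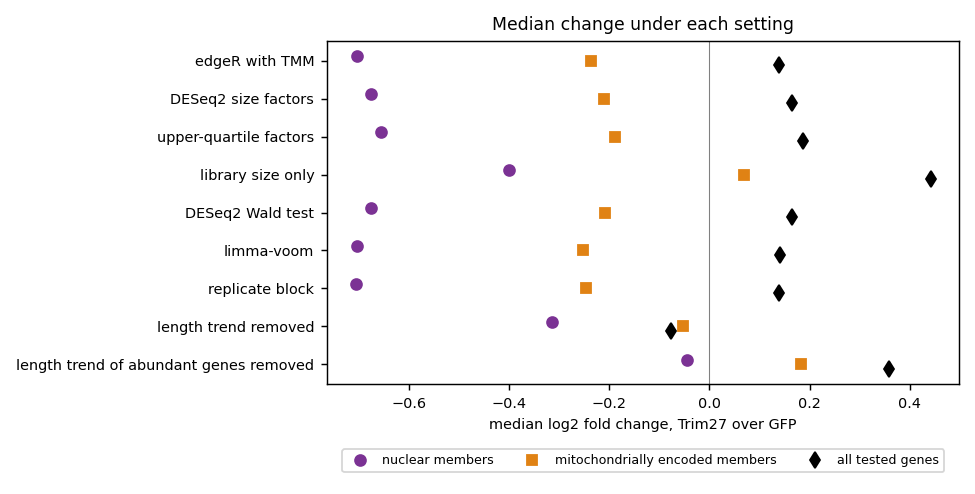
Median log2 fold change, Trim27 over GFP, of the 45 nuclear members (circles), the 11 mitochondrially encoded members (squares) and all tested genes (diamonds) under 9 settings. The nuclear median is lowest in each, from -0.71 with the replicate number as a block to -0.044 where the length trend of abundant genes was taken out. Library scaling alone moves the medians together. The mitochondrial median is above 0 there and with unscaled library sizes.

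The mitochondrially encoded members did not move as one, although their RNAs are cut from long shared precursors. mt-Cytb, the cytochrome b of complex III, had 797, 666, 687 and 709.8 CPM in the Trim27 libraries, against 562, 607, 556 and 584 CPM in the GFP libraries (0.31, SE 0.05, adjusted p = 2.78e-06). Complex III thus had its mitochondrial subunit higher and its nuclear subunits lower. mt-Nd4 of complex I had 362, 315, 315 and 344 CPM in the Trim27 libraries, against 264, 275, 245 and 266 CPM in the GFP libraries (0.35, SE 0.05, adjusted p = 7.99e-07). mt-Nd5, which lies between mt-Nd4 and mt-Cytb on the mitochondrial genome, had 71.1, 56.9, 67.3 and 63.6 CPM in the Trim27 libraries, against 110.0, 122, 107 and 119 CPM in the GFP libraries (-0.82, SE 0.07, adjusted p = 4.03e-12). For mt-Cytb and mt-Nd4 each Trim27 library was above every GFP library, and for mt-Nd5 each was below. These 3 directions held in all 22 settings. Counts of mt-Nd5 were 19.6, 18.1, 21.4 and 18.5% in the Trim27 libraries, against 41.6, 44.3, 43.6 and 44.8% in the GFP libraries, as a percentage of mt-Nd4 counts. mt-Nd5 overlaps mt-Nd6 on the opposite strand, and the strand setting of the counting is not stated. Of the windows of mt-Nd4, 62.2% recur in the pseudogene Gm28439, so its counts are uncertain.

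Of the other abundant members, mt-Nd1 had 770.2, 568, 599.6 and 612 CPM in the Trim27 libraries, against 790.2, 914, 787 and 851 CPM in the GFP libraries (-0.39, SE 0.08, adjusted p = 0.00067), with Trim27 replicate 1 close to the GFP libraries. mt-Nd2 had 437, 300.98, 307 and 363 CPM in the Trim27 libraries, against 383, 468, 377 and 429.8 CPM in the GFP libraries and did not pass (-0.24, SE 0.13, adjusted p = 0.126). mt-Co1, the catalytic core of complex IV, had 1060.5, 773, 784 and 836 CPM in the Trim27 libraries, against 917, 1051, 931 and 939.5 CPM in the GFP libraries and did not pass either (-0.15, SE 0.09, adjusted p = 0.151). Other annotated genes hold 51.1% of the windows of mt-Co1, so its counts are uncertain. For mt-Nd1, mt-Nd2 and mt-Co1, Trim27 replicate 1 was the highest Trim27 library. Without it, 6 mitochondrially encoded members fell and 2 rose (38.8% and 46.5% of all genes), with a median of -0.39. mt-Nd6, the light-strand gene, had 18.3, 12.8, 13.8 and 15.3 CPM in the Trim27 libraries, against 17.5, 13.4, 13.3 and 13.8 CPM in the GFP libraries (0.053, SE 0.14, adjusted p = 0.723), and its groups overlapped.

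The remaining members had few counts. mt-Co2, which receives electrons from cytochrome c, had 11.6, 10.8, 10.6 and 10.1 CPM in the Trim27 libraries, against 10.5, 14.0, 10.2 and 9.15 CPM in the GFP libraries (-0.026, SE 0.15, adjusted p = 0.872). mt-Co3 had 8.06, 5.66, 9.28 and 6.45 CPM in the Trim27 libraries, against 12.9, 14.3, 9.09 and 12.2 CPM in the GFP libraries (-0.71, SE 0.17, adjusted p = 0.000432). mt-Atp6, the proton channel subunit of complex V, had 7.52, 5.18, 4.58 and 5.52 CPM in the Trim27 libraries, against 7.54, 9.04, 8.73 and 8.53 CPM in the GFP libraries (-0.57, SE 0.18, adjusted p = 0.00561). Only mt-Atp6 had groups that did not overlap. mt-Nd3 had 1.56, 1.32, 0.939 and 1.36 CPM in the Trim27 libraries, against 2.63, 1.92, 1.196 and 0.823 CPM in the GFP libraries (-0.34, SE 0.37, adjusted p = 0.39). mt-Atp8 and mt-Nd4l stayed under the minimum with 8 and 27 counts. The members just inside it were Atp5l2-ps with 108, Cox7a1 with 129 and mt-Nd3 with 140 counts, and the next one outside was Atp5l-ps1 with 51.

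The low members share a feature of sequence. Of the 50-base windows of mt-Co2, mt-Atp6, mt-Co3 and mt-Nd3, 100%, 99.5%, 99.9% and 98.0% occur unchanged in another annotated gene, in each case first in an unprocessed pseudogene, a nuclear copy of mitochondrial DNA. Their levels were 3.73 to 15.7 CPM per kilobase in Trim27 libraries and 4.71 to 16.03 in GFP libraries. The other 7 members, with 0% to 62.2% of windows shared, stood at 28.97 to 666 CPM per kilobase in Trim27 libraries and 27.9 to 873 in GFP libraries. How the counting treated reads that match several places is not stated, and its part in these levels was not tested. Counts of these 4 members are uncertain in both groups.

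The match is shown for 50 bases of mt-Co2, at chrM:7313-7362 on the plus strand of GRCm38, and of the pseudogene Gm28661, at chr1:24615216-24615265 on the minus strand.
mt-Co2: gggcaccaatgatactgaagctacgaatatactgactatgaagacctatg
Gm28661: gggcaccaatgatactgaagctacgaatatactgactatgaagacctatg

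**Figure D5:**
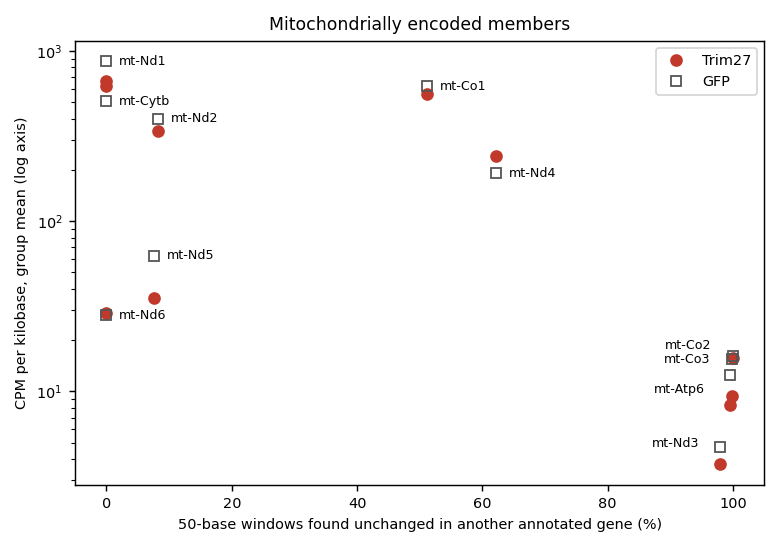
Mean CPM per kilobase (log axis) of the 11 mitochondrially encoded members in Trim27 (filled circles) and GFP libraries (open squares) against the percentage of their 50-base windows found unchanged in another annotated gene. The 4 members with nearly all windows shared lie between 3.73 and 16.03 CPM per kilobase, below the other 7.

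Genes that serve the chain were counted from lists drawn up for the pathway. Of 32 tested assembly factors of complexes II to V, 18 fell and 11 rose (median -0.43, 38% and 47.5% of all genes), with 13 and 12 after removal of the length trend of abundant genes (29.5% and 53.8%). Uqcc2, which assembles complex III, had 107, 107, 111 and 107 CPM in the Trim27 libraries, against 351, 319.9, 325 and 324 CPM in the GFP libraries (-1.61, SE 0.05, adjusted p = 1.39e-21). Atpif1, the inhibitor of ATP hydrolysis by complex V, had 411, 383, 393 and 391.6 CPM in the Trim27 libraries, against 869, 864, 862 and 869.9 CPM in the GFP libraries (-1.13, SE 0.04, adjusted p = 1.14e-19). Coa4, a complex IV assembly factor, was at 28.5 ± 2.99 CPM in Trim27 libraries and 88.3 ± 6.20 CPM in GFP libraries (-1.63). In these 3 every Trim27 library was below every GFP library.

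Of 14 tested genes of cytochrome c and ubiquinone, 11 rose and 3 fell (median 1.11, where 47.5% of all genes rose and 38% fell). After the trend on length was taken out, 10 rose and 3 fell (39.8% and 44% of all genes). Cycs, the carrier cytochrome c itself, named after its values were seen, fell and was at 103 ± 12.99 CPM in Trim27 libraries and 177 ± 5.03 CPM in GFP libraries (-0.78). The 11 that rose were Hccs, which attaches heme to cytochrome c, and 10 genes of ubiquinone synthesis or handling. Coq5, a methyltransferase of ubiquinone synthesis, had 42.6, 42.3, 48.7 and 48.8 CPM in the Trim27 libraries, against 12.9, 10.4, 11.1 and 12.6 CPM in the GFP libraries (1.95, SE 0.10, adjusted p = 1.54e-16). Pdss2, a subunit of the enzyme that makes its side chain, was at 15.4 ± 0.972 CPM in Trim27 libraries and 0.272 ± 0.330 CPM in GFP libraries (5.76). Coq4 fell, at 107 ± 8.71 CPM in Trim27 libraries and 243 ± 13.3 CPM in GFP libraries (-1.18).

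Of 22 tested genes for mitochondrial DNA and RNA, 12 rose and 9 fell (median 0.41), shares near those of all genes (47.5% and 38%). They became 10 and 11 with the length trend removed (median -0.29, 39.8% and 44% of all genes). Slirp, which stabilises mitochondrial mRNA, had 44.3, 34.9, 40.8 and 42.0 CPM in the Trim27 libraries, against 110.4, 124, 124 and 115 CPM in the GFP libraries (-1.55, SE 0.07, adjusted p = 6.55e-18). Ssbp1, the single-strand binding protein of mitochondrial DNA, was at 82.8 ± 5.84 CPM in Trim27 libraries and 205 ± 18.6 CPM in GFP libraries (-1.31). The transcription elongation factor Tefm was at 24.8 ± 2.32 CPM in Trim27 libraries and 3.01 ± 1.17 CPM in GFP libraries (3.05).

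Of 10 tested nuclear regulators, 7 rose and Esrra fell (median 0.79, where 47.5% of all genes rose and 38% fell). Once the trend on length was taken out, 5 rose and 3 fell (39.8% and 44%). Esrra, the receptor ERR alpha, had 24.5, 19.7, 23.2 and 19.8 CPM in the Trim27 libraries, against 91.1, 78.2, 90.9 and 80.9 CPM in the GFP libraries (-1.96, SE 0.08, adjusted p = 1.32e-18). Gabpb1, the beta chain of GABP, had 29.2, 24.5, 27.7 and 29.8 CPM in the Trim27 libraries, against 1.49, 0.213, 0.957 and 1.23 CPM in the GFP libraries (4.83, SE 0.22, adjusted p = 2.78e-18). Hcfc1, a transcriptional cofactor, was at 128 ± 3.04 CPM in Trim27 libraries and 66.2 ± 0.951 CPM in GFP libraries (0.95). Nrf1, named after its values were seen because its motif was searched, was at 87.8 ± 4.66 CPM in Trim27 libraries and 45.2 ± 3.01 CPM in GFP libraries (0.96).

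Of 44 tested Nduf genes, 34 fell and 5 rose (median -0.75, 38% and 47.5% of all genes). They comprise 37 symbols of subunits, of which 31 fell and Ndufs1 rose (median -0.86), and 7 Ndufaf assembly factors, of which 3 fell and 4 rose. After removal of the length trend of abundant genes 19 of the 37 fell and 8 rose (29.5% and 53.8% of all genes). The lowest p-values were those of Ndufa12 (-1.58), Ndufs6 (-1.25) and Ndufv3 (-1.42).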

How the data were processed

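The deposited data are raw read counts of the authors, 1 table of gene symbols by 8 libraries. Polyadenylated RNA was used with a transposase-based library kit, per the labels' protocols. HISAT2, featureCounts, bcl2fastq and build NCBIM37 are credited to the submitters' processing notes. Versions, annotation, strand setting and multi-mapping rules: not given in the sources used here. Of counts from 1 to 10, 64.7% to 66.99% were even in Trim27 libraries and 68.4% to 71.98% in GFP libraries, as would happen if each read of a pair counted by itself. The 1 row with no gene name held 0 counts and was left out.

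Counts were fitted in R 4.3.3 with edgeR 4.0.16 (filterByExpr with a minimum count of 10 and a total of 15, TMM, robust quasi-likelihood test, 2-sided, no covariate) over 11040 genes, with a threshold of 0.05 on the Benjamini-Hochberg adjusted p. SEs came from the fold change and its F statistic. The fit was tested on simulated data in which few genes changed, as many up as down. Far more genes were called here, so scaling under such wide change was not tested. Alternatives used limma 3.58.1, DESeq2 1.42.0, other scalings and filters, and length offsets (lowess, span 0.3). Lengths (median of basic transcripts, found for all 56 members) and shared windows came from GENCODE M21 (GRCm38), and promoters from RefSeq GRCm38.p6, not the build of the counts, so only names and sequences were joined. Older symbols were matched through RefSeq synonyms. For each complex the 3 highest and 3 lowest nuclear members, all mitochondrial members, complex II and isoform families are given per library, and from each list the 3 genes with the smallest p. Members and lists were chosen with earlier results of these data known. Counting bounds cover counting error only.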

Additional observations from a re-analysis of the deposited data

Results flagged for a closer look

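In 8 of 125 groups of 4 values, 1 library stood apart from the other 3 by a Dixon test, and chance alone flags about 5% of groups. Trim27 replicate 1 was low for Atp5b (3038 CPM, the others 3222 to 3245), Uqcrc1 (2294 CPM, the others 2611 to 2657), Cox6b2 (15.6 CPM, the others 17.04 to 17.3) and the nuclear complex III sum (4923 CPM, the others 5419 to 5462). GFP replicate 1 was low for Atp5l (100.1 CPM, the others 113 to 116) and high for mt-Nd6 (17.5 CPM, the others 13.3 to 13.8) and the nuclear complex IV sum (8922 CPM, the others 8481 to 8525). GFP replicate 2 was high for mt-Co1 (1051 CPM, the others 917 to 939.5). With both replicates numbered 1 left out, an alternative chosen after seeing the data, 35 nuclear members fell and 6 rose.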

How the results depend on the processing

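DESeq2 size factors, upper-quartile factors, the DESeq2 Wald test, limma-voom, library sizes without mitochondrial or ribosomal protein genes, and no filter gave 35 falls and 6 rises of nuclear members. The nuclear median was -0.66 with upper-quartile factors. With library size alone 27 nuclear members fell and 9 rose, with a median of -0.40, and 2 mitochondrial members fell (median 0.069). With the length trend removed the medians were -0.32 (nuclear) and -0.053 (mitochondrial), their difference was -0.26, and 4 mitochondrial members rose and 2 fell. With the trend of abundant genes removed 13 nuclear members rose and 19 fell (median -0.044), 4 mitochondrial members rose and 1 fell (median 0.18), and the difference was -0.23, against -0.47 with TMM. A fold above 1.5 by glmTreat left 22 nuclear falls and 2 rises and 1 mitochondrial fall and 0 rises. Without the symbols that are not subunits the nuclear median was -0.62. Of the Co, Atp and Cytb genes alone, 1 rose and 2 fell. Among members with under 10% of windows shared, an alternative chosen after seeing the data, 19 of 27 nuclear members fell (median -0.44), 1 mitochondrial member rose and 2 fell, and the difference was -0.20.

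Leaving out each library gave 35 to 37 nuclear falls, 6 rises in each case, 4 to 6 mitochondrial falls, a nuclear median of -0.76 to -0.67, a mitochondrial median of -0.39 to -0.18 and a difference of -0.55 to -0.34. The 6 falls and the values of -0.39 and -0.34 came without Trim27 replicate 1, and -0.76 and -0.55 without Trim27 replicate 2. Over all genes 36.7% to 38.8% fell and 45.8% to 47.7% rose. With the replicate number as a block 35 nuclear members fell and 6 rose, and 5 mitochondrial members fell. Same-numbered libraries correlated by -0.03 to 0.02, and 1 of 4 Trim27 libraries correlated best with the GFP library of its own number, so the numbers were not taken as pairs.

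Members that changed sign and passed the threshold before or after the change were as follows. Under library size alone, Atp5f1 was at 0.15, Cyc1 at 0.062, Uqcrc2 at 0.052 and Atp5g2 at 0.23. With the length trend removed, Sdha was at -0.11, Atp5b at -0.084, Sdhc at -0.025, Cox6b1 at 0.097, Atp5k at 0.38, Atp5g2 at 0.49, Uqcrh at 0.22 and mt-Co2 at 0.45. With the trend of abundant genes removed, Atp5f1 was at 0.0073, Atp5d at 0.11, Cox6c at 0.14, Cox7a2l at 0.067, Cox8a at 0.14, Cox6b1 at 0.37, Atp5k at 0.78, Atp5g2 at 0.72, Uqcrh at 0.50, mt-Nd1 at 0.076, mt-Co2 at 0.66 and mt-Atp6 at 0.12. Members that passed in neither also changed sign, 4 under library size alone (Cox4i2, mt-Nd2, mt-Co1 and mt-Co2), 2 with the length trend removed (Cox4i2 and mt-Nd3) and 5 with that of abundant genes removed (Cox4i2, mt-Nd2, mt-Co1, mt-Nd3 and Atp5l2-ps). Atp5c1, mt-Co2 and mt-Nd6 did so in other settings. The cause of these shifts was not tested. In every one of the settings that tested them, up to 22 and without the fold limit, 18 nuclear members fell and 2 rose, 1 of them Cox7a1, whose difference was built into its inclusion. The share of all genes with the same call in every setting was not worked out, so these counts have no background. Low counts limit mt-Nd3, mt-Atp6, Cox7a1 and Cox4i2.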

Other observations

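Counts of the mitochondrial ribosomal RNAs, which are no members, were lower in Trim27 libraries. The libraries were made from polyadenylated RNA, so these counts cover only what was captured. Shared windows were not computed for these genes. The large ribosomal RNA mt-Rnr2 had 137, 101, 102 and 113 in the Trim27 libraries, against 327, 332, 294 and 330.1 in the GFP libraries (CPM), a log2 fold change of -1.50 (SE 0.08, adjusted p = 8.81e-14 by edgeR's quasi-likelihood test). The small one, mt-Rnr1, had 31.3, 23.7, 25.4 and 26.1 in the Trim27 libraries, against 46.3, 39.1, 46.5 and 39.0 in the GFP libraries (CPM), a log2 fold change of -0.68 (SE 0.10, adjusted p = 2.31e-07). In both, each Trim27 library lay below every GFP library. Counts of mt-Rnr2 were 438, 429, 402 and 431% in the Trim27 libraries, against 706, 849.9, 632 and 847% in the GFP libraries, as a percentage of mt-Rnr1 counts.

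Counts of mt-Nd5 were also 8.92, 8.54, 9.79 and 8.96% in the Trim27 libraries, against 19.6, 20.1, 19.2 and 20.4% in the GFP libraries, as a percentage of the counts of its neighbour mt-Cytb, with no overlap between groups. This ratio was computed after the values were seen and has no test.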
